A study of Mus musculus with 4 samples.

Results

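The genes described here make the major histocompatibility complex (MHC) class I molecule of mouse cells and load it with peptide. They are H2-K1, H2-D1, B2m, Tap1, Tap2, Tapbp, Psmb8, Psmb9, Psmb10 and Nlrc5, chosen by gene symbol, with older symbols of the same gene accepted. Of these 10 genes, 8 had a probe, 1 each, among the 15444 genes named on the array, and no probe was listed under the names H2-K1 or Nlrc5. RNA was taken from cultures of 4 lines of mouse melanoma cells of C57Bl6 background. B16 is the parental line, for which the study's protocol names B16F1 as the cells injected. B16-RI was grown out of lymph node metastases that formed after 1 round of injection of B16 cells into the skin of mice. A further round, with B16-RI injected, gave B16-RII, from lymph node metastases, and B16-RIIL, from lung metastases, so both had passed through 2 rounds. None of the lines received a drug or carried an engineered allele according to the labels, and each RNA was pooled from cultures of different passage numbers. The values come from 1 array per line, a single chemiluminescence signal per probe, so differences between lines had no replicate check and no test was run. Precision is limited by this number of arrays.

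A class I molecule is a polymorphic heavy chain, encoded by H2-K1 or H2-D1, held together with the small invariant chain beta 2-microglobulin, encoded by B2m. Peptides are cut from cytosolic proteins by the proteasome, whose catalytic subunits are replaced in the immunoproteasome by Psmb8, Psmb9 and Psmb10, and are carried into the endoplasmic reticulum by the transporter of Tap1 and Tap2. Tapasin, encoded by Tapbp, bridges the transporter and the empty class I molecule, and Nlrc5 is a transactivator of these genes that interferon-gamma induces. B16 melanoma is known for little class I on the cell surface, which interferon-gamma raises.

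The heavy chain gene H2-D1 was the one member detected on every array whose signal differed by 2-fold or more between lines, and it was highest in B16-RII and B16-RIIL. B2m, Tapbp and Psmb10 were detected on all 4 arrays and stayed within 2-fold. Tap1 and Tap2 were detected in B16-RIIL alone, Psmb9 in B16-RI alone and Psmb8 on none of the arrays. In bulk RNA, fewer cells that use a gene and less RNA per cell cannot be told apart.

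A probe counted as detected where the analyzer gave a signal-to-noise ratio, written S/N, of 3 or more and a flag of 5000 or less. Above or below means here that normalized signals of a pair of lines differed by 2-fold or more, with detection in the line of higher signal. For a probe undetected in the line of lower signal, the ratio was taken to its own value there or to the dimmest detected value on that array, whichever was greater, and is a bound, written as at least N-fold. Between 13872 and 14855 of the 33012 probes were detected per array, and 11604 on all of them. The probes detected on all arrays were brighter than in B16 by a median of 0.21 log2 units in B16-RI, 0.41 in B16-RII and 0.22 in B16-RIIL. Of the 8 members, 4 were detected in B16, 5 in B16-RI, 4 in B16-RII and 6 in B16-RIIL, beside 54.9%, 53.6%, 56.4% and 56.6% of all named genes, and 4 were detected on every array, beside 47.6%. The 5 melanocyte markers with a probe, Dct, Tyr, Tyrp1, Pmel and Mitf, were detected on all 4 arrays.

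**Figure D1:**
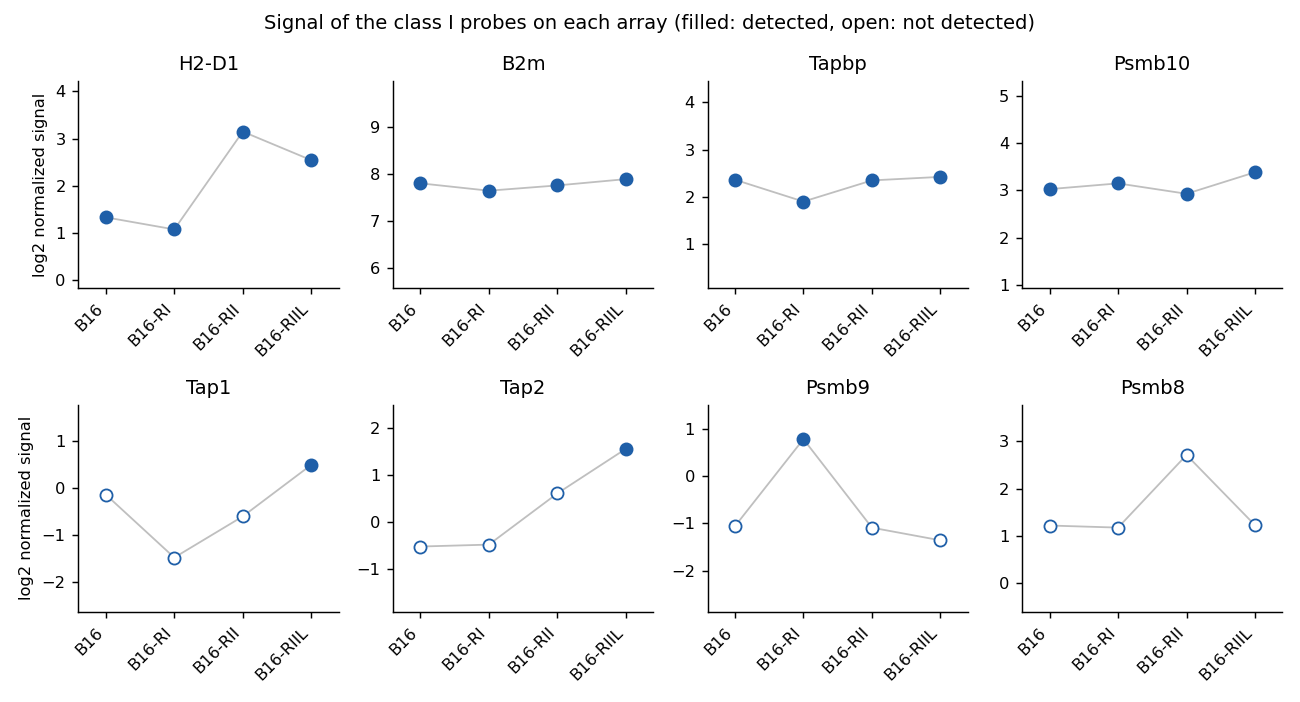
Log2 normalized signal (vertical axis, each panel spanning the same number of log2 units) of the 8 probes on the arrays of B16, B16-RI, B16-RII and B16-RIIL, with filled points for detected and open points for undetected signals and 1 array per point. H2-D1 lies between 1.07 and 3.15, with B16-RII and B16-RIIL above the other lines, while B2m stays between 7.65 and 7.90.

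The stretches before the transcription start of H2-D1, B2m and Tap1 are shown because they stand before genes of 3 roles in 1 pathway whose signals behaved differently. Each is 250 bases of RefSeq sequence, build GRCm38.p6, plus strand, 5′ to 3′. Capitals mark matches on either strand to GGGATTCCC, a palindrome bound by NF-kB in the class I enhancer, to GAAANNGAA, a core of the interferon-stimulated response element, to CCAAT, bound by NF-Y, and to TGACG, bound by proteins of the CREB and ATF family. No overlap between matches of different motifs occurs in these stretches.
H2-D1, chr17:35262844-35263093: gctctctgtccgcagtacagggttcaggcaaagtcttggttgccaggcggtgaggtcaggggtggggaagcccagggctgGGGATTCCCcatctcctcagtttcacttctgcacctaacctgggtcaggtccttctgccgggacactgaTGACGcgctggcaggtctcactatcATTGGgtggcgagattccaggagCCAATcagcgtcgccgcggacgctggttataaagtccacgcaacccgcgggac
B2m, chr2:122147437-122147686: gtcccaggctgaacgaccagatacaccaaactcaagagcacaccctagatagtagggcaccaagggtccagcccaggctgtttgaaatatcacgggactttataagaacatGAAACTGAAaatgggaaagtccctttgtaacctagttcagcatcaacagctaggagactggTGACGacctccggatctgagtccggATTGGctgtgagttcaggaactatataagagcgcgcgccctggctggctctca
Tap1, chr17:34187306-34187555: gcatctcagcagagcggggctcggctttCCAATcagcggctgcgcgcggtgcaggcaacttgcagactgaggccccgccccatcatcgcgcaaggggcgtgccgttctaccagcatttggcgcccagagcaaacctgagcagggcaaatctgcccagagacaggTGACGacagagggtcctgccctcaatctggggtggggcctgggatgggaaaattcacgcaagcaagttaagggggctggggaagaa

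Matches were counted in windows of 250 bases before and 50 bases after the start, which RefSeq gave for 8 of the 10 genes. The palindrome was found once in the H2-D1 window. It occurs in 116 of all 32817 windows, 0.353%, which belong to 112 genes, among them H2-K1 and the further heavy chain genes H2-Q6 and H2-Q7. The B2m window holds 1 match to the interferon core, which 8.55% of all windows hold. Other forms and spacings of the interferon element were not searched. A window without a match, such as that of H2-D1, may therefore still hold such an element. CCAAT, in 37.389% of all windows, and TGACG, in 20.788%, were matched in the windows of H2-K1, H2-D1, B2m, Tap1 and Psmb9. CCAAT alone was matched in that of Tapbp. The windows of Psmb8 and Psmb10 hold none of these motifs. Tap1 and Psmb9 are divergent neighbours, and their windows share 275 of 300 bases on opposite strands. A match is a description of letters and not a binding site.

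The heavy chain and its partner showed unlike patterns over the lines. The normalized signal of H2-D1 (file identifier mCG145067.1, chromosome 17) was 2.51 in B16, 2.10 in B16-RI, 8.86 in B16-RII and 5.82 in B16-RIIL, with S/N of 4.22, 6.27, 15.5 and 16.9. Both lines of the second round were thus higher than B16 and B16-RI. The signal in B16-RII was 3.53-fold that in B16, a log2 difference of 1.82, and 4.22-fold that in B16-RI. In B16-RIIL it was 2.32-fold that in B16, a log2 difference of 1.21, and 2.77-fold that in B16-RI. B16-RI differed from B16 by 1.20-fold, in the direction of less signal. The lung line stood 1.52-fold below the lymph node line of the same round, under the size that was called. With other scalings of the arrays the B16-RII signal stayed between 2.46-fold and 3.11-fold that of B16, whereas that of B16-RIIL was between 1.98-fold and 2.33-fold, and the call was lost with 75th percentile scaling. RefSeq lists the symbols H2-D1 and H2-K1 as synonyms of each other, so the older symbol in the file may stand for either gene. The sequence of the probe was not used here, and whether it also binds RNA of other heavy chains was not tested.

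B2m (mCG11606.2, chromosome 2), the light chain shared by class I molecules, gave normalized signals of 224 in B16, 201 in B16-RI, 217 in B16-RII and 238 in B16-RIIL. The highest array was 1.19-fold above the lowest, and all 4 signals had S/N of at least 54.5. The log2 difference from B16 was -0.16 in B16-RI, -0.04 in B16-RII and 0.09 in B16-RIIL, and its sign in B16-RII and B16-RIIL turned with the scaling of the arrays, from -0.47 to 0.11 and from -0.43 to 0.14. B2m was called in no comparison.

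The 3 genes of transport and bridging differed in how far their probes stood above background. Tapasin, Tapbp (mCG23001.3, chromosome 17), had normalized signals of 5.13 in B16, 3.72 in B16-RI, 5.08 in B16-RII and 5.35 in B16-RIIL, detected in each. Its signal in B16-RI was 1.38-fold below that in B16, and B16-RII and B16-RIIL lay within 1.04-fold of B16. Other scalings moved the log2 difference in B16-RI to between -0.60 and -0.47, still under the size that was called. In B16-RII they moved it to between -0.54 and -0.20, and in B16-RIIL to between -0.17 and 0.06.

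Tap2 (mCG23013.2, chromosome 17) had normalized signals of 0.70 in B16, 0.72 in B16-RI, 1.53 in B16-RII and 2.95 in B16-RIIL, with S/N of -0.50, 0.30, 2.40 and 6.77. The transporter subunit thus passed the detection limit in the lung line alone. Its signal there was at least 4.21-fold that in B16 and at least 4.10-fold that in B16-RI. Against B16-RII the ratio was at least 1.93-fold and was not called. Under other scalings the ratio to the undetected B16 signal, again a bound, was between 2.94-fold and 4.35-fold.

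Tap1 (mCG23012.2, chromosome 17), which pairs with Tap2, had normalized signals of 0.91 in B16, 0.36 in B16-RI, 0.66 in B16-RII and 1.41 in B16-RIIL, with S/N of 2.44, -0.85, 1.91 and 5.32. It too passed the detection limit in B16-RIIL alone, and the undetected signal in B16 was the next highest. The lung line was at least 3.36-fold above B16-RI and at least 2.14-fold above B16-RII, both called. It was at least 1.55-fold above B16, which was not called. Under other scalings the ratio to the undetected B16 signal was between 1.08-fold and 1.62-fold. The call against B16-RII was lost with quantile normalization, at a log2 difference of 0.97, and with median scaling, at 0.99.

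**Figure D2:**
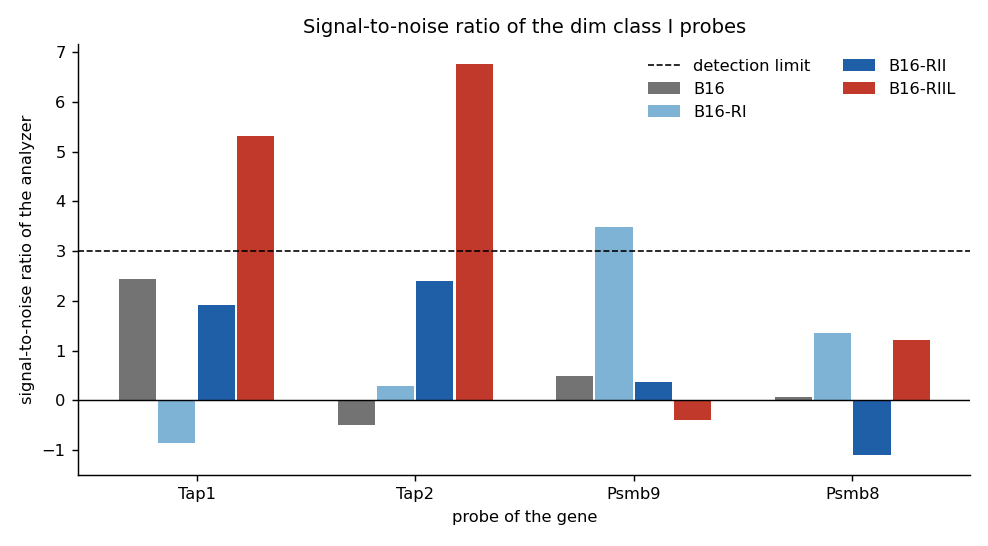
Signal-to-noise ratio given by the analyzer (vertical axis) for the probes of Tap1, Tap2, Psmb9 and Psmb8, 1 bar per line, with a dashed line at the detection limit of 3. The bars over the limit are those of B16-RIIL for Tap1, at 5.32, and Tap2, at 6.77, and that of B16-RI for Psmb9, at 3.48.

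Of the immunoproteasome subunits, Psmb10 was the one with a clear signal. Psmb10 (mCG20476.1, chromosome 8) gave normalized signals of 8.16 in B16, 8.88 in B16-RI, 7.62 in B16-RII and 10.5 in B16-RIIL, detected in each. The highest array was 1.37-fold above the lowest, and no comparison was called. The log2 difference of 0.36 between B16-RIIL and B16 became -0.16 once the median of each probe set had been removed. The 403 genes of chromosome 8 detected on all arrays had a median log2 difference from B16 of 0.62 in B16-RIIL, against 0.26 over all genes so detected, and the part of this in the Psmb10 value was not tested.

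Psmb9 (mCG23011.3, chromosome 17) had normalized signals of 0.48 in B16, 1.73 in B16-RI, 0.47 in B16-RII and 0.39 in B16-RIIL, with S/N of 0.50, 3.48, 0.38 and -0.40. B16-RI stood above the other lines, near the detection limit. The signal there was at least 3.60-fold that in B16, 3.68-fold that in B16-RII and 4.44-fold that in B16-RIIL, and each of these calls was lost with a stricter S/N limit of 5. Psmb8 (mCG23014.2, chromosome 17) had normalized signals of 2.32 in B16, 2.25 in B16-RI, 6.55 in B16-RII and 2.33 in B16-RIIL, but S/N was between -1.10 and 1.36, so no ratio is given. In RefSeq, Psmb9, Tap1, Psmb8 and Tap2 follow each other in this order on chromosome 17. The neighbours Tap1 and Psmb9 were detected in different lines.

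Counted over the members, the calls were few. Of the 5 members detected in B16 or B16-RI, 1 was above B16 in B16-RI, Psmb9, where 7.98% of all genes so detected were above, and 0 were below, where 6.96% were. Of the 4 detected in B16 or B16-RII, 1 was above B16, H2-D1, beside a background of 12.1%, and 0 were below, beside 5.44%. Of the 6 detected in B16 or B16-RIIL, 2 were above B16, H2-D1 and Tap2, beside 11.7%, and 0 were below, beside 5.94%. With 4 to 6 genes counted, 1 gene more or less moves these shares by more than the background itself.

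Against B16-RI, from which both lines of the second round were derived, H2-D1 was above in B16-RII and Psmb9 below, of 5 members detected in either line, beside backgrounds of 8.29% above and 4.32% below. In B16-RIIL 3 of 7 members were above B16-RI, H2-D1, Tap1 and Tap2, beside 8.61%, and Psmb9 was below, beside 5.72%. Between the lung line and the lymph node line of the second round, Tap1 alone of 6 members was above in B16-RIIL, beside 5.58%, and 0 were below, beside 7.46%. These comparisons share arrays, so their counts are not independent.

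The 7 members detected on at least 1 array had a median log2 difference from B16 of -0.16 in B16-RI, -0.03 in B16-RII and 0.36 in B16-RIIL, undetected signals included, beside 0.20, 0.42 and 0.24 over the 10253 genes so detected. The 4 members detected on all arrays had a median log2 difference from B16 of -0.21 in B16-RI, -0.03 in B16-RII and 0.22 in B16-RIIL. Over the 7345 genes detected on all arrays it was 0.22, 0.45 and 0.26. With probe sets centred, the medians of these 4 members were -0.37, -0.46 and -0.05. In B16-RII, H2-D1 alone among them exceeded the median of all genes, with the deposited, the quantile normalized and the centred values.

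**Figure D3:**
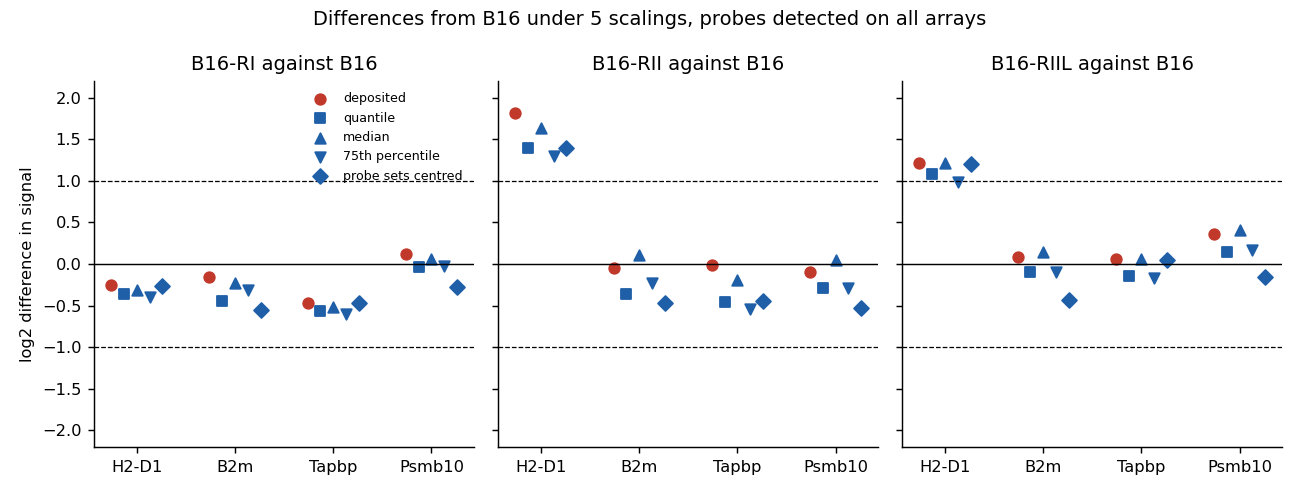
Log2 difference in signal from B16 (vertical axis, dashed lines at 2-fold) for the 4 genes detected on all arrays, with the deposited values as circles and 4 other scalings of the same arrays beside them, 1 array per line. H2-D1 lies over 2-fold in B16-RII with each scaling and close to 2-fold in B16-RIIL, from 0.98 to 1.22, and the other genes stay within 2-fold.

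Markers of other cell types were mostly undetected. Ptprc, the common leukocyte antigen, was detected on none of the arrays. Of 9 lymphocyte markers with a probe, 2 were detected in B16, 2 in B16-RI, 1 in B16-RII and 3 in B16-RIIL, and the summed normalized signal of the list was 62.1, 72.1, 84.5 and 66.8. The sum was highest on the array with the highest H2-D1 signal, but over the 4 lymphocyte markers detected on any array the median log2 difference from B16 there was -0.84, with 0 called above and 1 below. By the brightest probe of each gene, the 6 endothelial markers summed to 3.7, 5.6, 6.1 and 4.7, with 0 detected in B16 and B16-RI and 1 in each of the other lines, so this sum was highest in B16-RII too. A dimmer probe of Prox1 was also detected in B16-RIIL. The 1 detected by its brightest probe was Pecam1, with signals of 0.52, 1.34, 2.44 and 1.02, at least 4.69-fold above B16 in B16-RII. The 6 macrophage markers summed to between 7.1 and 8.7, with 1 or 2 detected per array by their brightest probes and a dimmer probe of Csf1r detected in B16-RII alone, and the 6 fibroblast markers to between 11.8 and 22.2, with 1 to 3 detected. The fibroblast sum was highest in B16-RIIL, the line in which Tap1 and Tap2 were detected. In that line Col1a2 was 2.64-fold above B16, though under 2-fold with probe sets centred, while Col1a1 gave 2.41 against 3.5 in B16. Col1a2 was also 2.37-fold above B16 in B16-RI, where Tap1 and Tap2 were undetected, a log2 difference of 1.24 that became 0.85 with probe sets centred. The part of other cells in the class I signals was not tested.

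The other class I heavy chains, a list of 30 related genes, had a probe for 19, of which 11 were detected on at least 1 array. Of these 11, 7 were called in at least 1 line against B16, where 30.0% of the 10253 genes detected on any array were. For 5 of the 7 the probe was undetected in 1 of the lines compared. H2-Q1, a nonclassical heavy chain, had signals of 0.47, 4.34, 0.65 and 0.96 in B16, B16-RI, B16-RII and B16-RIIL, detected in B16-RI alone, at least 9.23-fold above B16. H2-M1 was detected in B16-RI alone, with an S/N of 3.36, at least 3.65-fold above B16. In B16-RII, H2-Bl exceeded B16 by at least 2.36-fold by its brighter probe, a call lost when probe sets were centred, and its other probe was detected on none of the arrays. With an S/N limit of 5 the calls of H2-M1 and H2-Bl were lost.

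The other 4 were below B16. Hfe, which binds the transferrin receptor and controls iron uptake, was at least 2.40-fold below B16 in B16-RI, and Azgp1, a secreted relative, 2.08-fold below. Mr1, which presents vitamin B metabolites to T cells, was 2.04-fold below B16 in B16-RII, with signals of 5.03, 2.68, 2.46 and 5.51. H2-M3, which presents formylated peptides, was at least 2.34-fold below B16 in B16-RIIL. So 2 genes were above and 2 below B16 in B16-RI, 1 and 1 in B16-RII, and 0 and 1 in B16-RIIL, of 10, 9 and 8 detected in either line, in comparisons with backgrounds given above.

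A probe that the array assigns to both H2-Q8 and H2-Q7, and so to no single gene, was picked out after its values were seen. It had normalized signals of 15.3 in B16, 10.0 in B16-RI, 38.5 in B16-RII and 21.5 in B16-RIIL, detected in each. The signal in B16-RII was 2.52-fold that in B16, a log2 difference of 1.33 that became 0.91 with probe sets centred, while B16-RIIL was 1.40-fold above and B16-RI 1.53-fold below B16. The order of the lines was that of H2-D1. A second probe with the same assignment was detected on none of the arrays. A probe for H2-T9, H2-T22, H2-T17 and H2-T10 together gave 2.73, 2.29, 3.25 and 2.40.

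**Figure D4:**
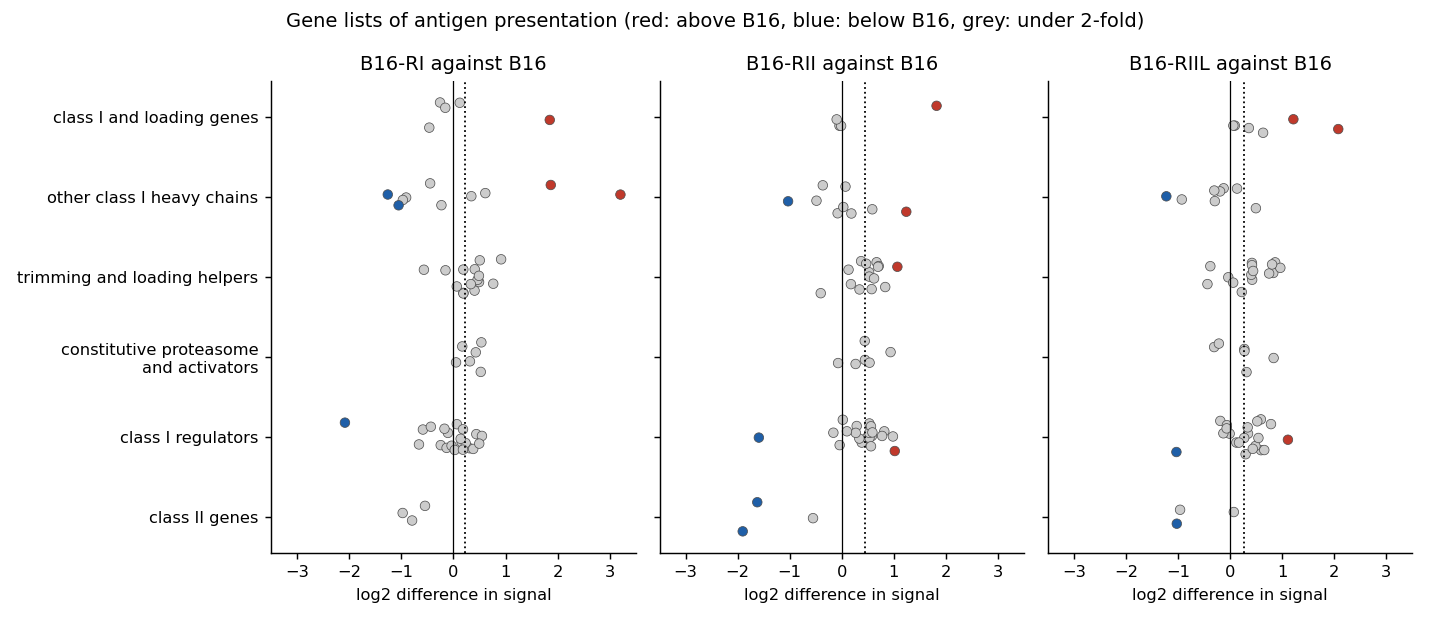
Log2 difference in signal from B16 (horizontal axis) for the genes of 6 lists, 1 point per gene detected in B16 or the line named above the panel, undetected sides set to their bound, with a dotted line at the median of all genes detected on all arrays. Red and blue points were called above and below B16. The heavy chains outside the class I members hold calls on both sides, while the constitutive proteasome list holds 0 calls in each line.

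The genes of proteins that trim peptides and help class I molecules fold gave signals within 2-fold of B16, apart from 1 gene. Of 16 such genes 15 had a probe, all detected on at least 1 array, and 1 was called in any line, where 30.0% of all genes were. Hspa5, the chaperone BiP of the endoplasmic reticulum, had signals of 353 in B16, 666 in B16-RI, 740 in B16-RII and 642 in B16-RIIL. Its 2.09-fold difference in B16-RII was lost with quantile normalization, 75th percentile scaling and centred probe sets. The median log2 difference of the list was 0.41 in B16-RI, 0.53 in B16-RII and 0.42 in B16-RIIL, beside 0.20, 0.42 and 0.24 over all genes detected on any array.

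The constitutive counterparts of the immunoproteasome stayed within 2-fold of B16 by the brightest probe of each gene. Of 9 genes of the constitutive proteasome and its activators 8 had a probe, 6 were detected, and 0 were called in any line, beside the same 30.0%. A dimmer probe of Pomp, detected on every array, passed 2-fold, with 2.47 in B16 and 5.05 in B16-RI. The subunits that Psmb8, Psmb9 and Psmb10 replace are Psmb5, Psmb6 and Psmb7, named here for that role after their values were seen. By its brighter probe Psmb5 gave 102, 138, 123 and 124 in B16, B16-RI, B16-RII and B16-RIIL. By its dimmer probe it gave 48.56, 45.14, 45.55 and 42.05. Psmb6 gave 21.1, 30.6, 28.6 and 25.5, and Psmb7 gave 277, 287, 264 and 224. All 3 were detected on every array, while of the inducible subunits Psmb10 alone was.

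Among 25 regulators of class I genes, which include the interferon receptors, their kinases and factors of class I promoters, all had a probe, 21 were detected and 3 were called in any line, again beside 30.0%. Ciita, the class II transactivator and a relative of Nlrc5, had signals of 1.78, 0.32, 0.59 and 0.87, detected in B16 alone. It was at least 4.24-fold below B16 in B16-RI, 3.02-fold in B16-RII and 2.05-fold in B16-RIIL. These calls rest on the B16 signal, with an S/N of 4.48, and were lost with an S/N limit of 5. Jak1, a kinase of the interferon receptors, was 2.16-fold above B16 in B16-RIIL, with signals of 3.71, 5.03, 5.47 and 8.0, and Nfyc, a subunit of NF-Y, 2.02-fold above in B16-RII. Both differences were under 2-fold with quantile normalization, 75th percentile scaling and centred probe sets, and that of Nfyc with median scaling too. The median log2 difference of the list was 0.07 in B16-RI, 0.53 in B16-RII and 0.34 in B16-RIIL. Over all genes detected on any array it was 0.20, 0.42 and 0.24. With probe sets centred, the median of the list was -0.16, 0.10 and 0.02.

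The interferon factors Irf1 and Irf9 were singled out for their role after their values were seen, and neither was called against B16 in the deposited values. With probe sets centred, Irf9 passed 2-fold below B16 in B16-RI, at a log2 difference of -1.06. Irf1, which activates class I promoters, had signals of 6.65 in B16, 4.43 in B16-RI, 8.67 in B16-RII and 8.43 in B16-RIIL. Irf9, a subunit of the factor that type I interferon activates, had 6.66, 4.21, 8.41 and 10.0. In the deposited values B16-RI was the lowest line for both, while B16 was the lowest for the receptor genes Ifngr1, Ifngr2 and Ifnar1 and for Jak1. The receptor gene Ifnar2, at 9.59 against 10.94 in B16, and the kinase gene Tyk2, at 48.38 against 50.55, were lowest in B16-RIIL. With probe sets centred, Ifngr2 and Ifnar1 were lower in B16-RI than in B16. Irf9 was 2.38-fold higher in B16-RIIL than in B16-RI, which was called, and Irf1 1.90-fold higher, which was not.

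The pattern of H2-D1 over the 4 arrays was compared with those of other probes. Among 7972 probes assigned to 1 gene and detected on all arrays, the root mean square distance between log2 signals centred on their own mean was smallest for Ptgir, the prostacyclin receptor, at 0.122. It had signals of 23.2 in B16, 24.5 in B16-RI, 87.3 in B16-RII and 58.7 in B16-RIIL. Poll, a DNA polymerase of repair, followed at 0.166, then Ash1l, a histone methyltransferase, at 0.267, and C1qtnf12 at 0.279. All 4 were brightest in B16-RII and next brightest in B16-RIIL. The probe shared by H2-Q8 and H2-Q7, left out of this ranking because it has no single gene, lay at 0.262, with 2 of the ranked probes closer. With 4 points per gene, such likeness describes these arrays.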

How the data were processed

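RNA of 4 cultured lines was measured on Applied Biosystems mouse arrays, 1 array per line. For 33012 probes the authors deposited a raw and a normalized intensity, with the signal-to-noise ratio and flag as scores of the analyzer. The normalized intensity the authors deposited was found to be the raw signal divided by 1 of 2 constants per array, for 16524 and 16488 probes, although the study names quantile normalization. Of the columns, 16 were used, 30 of second arrays (20 of values, 10 of ratios) and 14 of derived values and ratios were not. The study describes duplicates of each line. The members and gene lists were chosen with earlier results of these data known.

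Log2 of the normalized signal was compared without a pseudocount. The limits of S/N 3 and flag 5000 follow the study's methods, applied to the brighter array. A gene with several probes was represented by the brightest. Named were all members, genes of the lists detected on the brighter array and at least 2-fold from B16 in any line, and the 5 probes nearest in pattern to the member of largest range among those detected on all arrays, of which 1 is not reported here. Marker genes are given by their lists. Of the probes, 17033 carried 1 gene, 275 several and 15704 none. RefSeq tables of GRCm38.p6 matched 16308 and gave names, chromosomes and promoters. The files name no build. Alternatives were quantile, median and 75th percentile scaling of raw signals, removal of the median of each probe set over probes detected on all arrays (probe sets centred), other detection and size limits and the second brightest probe. Scripts ran under Python 3.11.15 with matplotlib 3.10.9, scipy 1.17.1, pandas 2.3.3 and numpy 2.4.6, and the counting rules were tested on simulated data.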

Additional observations from a re-analysis of the deposited data

How the results depend on the processing

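No paired analysis was possible because 1 array per line was used, and for the same reason no array was left out. The second arrays were not used because their columns match no sample of the labels. The 17 summary values were recomputed under the alternatives, which gave 165 values, of which 125 stayed within 1.5 times the reported value and 40 moved. No called value changed direction, and the median over 7 members of -0.03 in B16-RII became 0.05 with median scaling. With a limit of S/N 5, the members above B16 in B16-RI became 0, those 2-fold apart between B16-RII and B16-RI 1, and the class II genes called 1. With detection required on both arrays compared, the members above B16 became 0 in B16-RI and 1 in B16-RIIL, those apart 1 between B16-RII and B16-RI, 1 between B16-RIIL and B16-RI and 0 between B16-RIIL and B16-RII, and the heavy chains called 2 and the class II genes 1. Without a detection filter 1 member was below B16 in B16-RI and 3 above in B16-RII, 4 were apart between B16-RII and B16-RI and 2 between B16-RIIL and B16-RII, and 5 class II genes were called. A 4-fold limit left 0 members above B16 in B16-RI, 0 in B16-RII and 1 in B16-RIIL, 1, 2 and 0 apart in the comparisons of B16-RII with B16-RI, B16-RIIL with B16-RI and B16-RIIL with B16-RII, and 1 heavy chain, 0 helpers, 1 regulator and 1 class II gene, H2-Eb1, by its undetected signal in B16-RII, which lies under the level used for its bound. A 1.5-fold limit gave 3 members apart between B16-RIIL and B16-RII, 7 helpers, 1 gene of the constitutive proteasome and 11 regulators. These follow from the limits themselves.

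Quantile normalization gave 0 members apart between B16-RIIL and B16-RII, 0 helpers and 1 regulator. Median scaling gave 0 members there, 2 helpers and 1 constitutive proteasome gene. With 75th percentile scaling 1 member was above B16 in B16-RIIL, and 0 helpers and 1 regulator were called, and centred probe sets left 0 helpers. The second brightest probe gave 1 constitutive proteasome gene, Pomp. The cause of these moves was not tested. Of the differences of single members from B16, 4 were called. Recomputed under 4 scalings, these calls were kept in 15 of 16 values and lost in 1, H2-D1 in B16-RIIL, at 0.98 with 75th percentile scaling. Undetected signals of Tap2 and Psmb8 in B16-RII, never called, also crossed 2-fold. That of Tap2 moved from a log2 difference of 1.13 to 0.94 with 75th percentile scaling and 0.70 with centred probe sets. That of Psmb8 crossed with 75th percentile scaling. Bounds set against the lowest detected signal alone, an alternative chosen after seeing the data, left 2 members above B16 in B16-RIIL. The S/N of the probes of Tap1, Tap2, Psmb8 and Psmb9, under 3 on most arrays, limits what could be seen of these genes.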

Other observations

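The class II genes, which present peptides from outside the cell, were mostly undetected. Of 10 genes 8 had a probe, 3 were detected on at least 1 array and 2 were called against B16, in each case below it, where 30.0% of all detected genes were called in any line, 5.44% below in B16-RII and 5.94% below in B16-RIIL. Cd74, the invariant chain that fills the class II groove until peptide is loaded, had normalized signals of 5.46 in B16, 3.74 in B16-RI, 1.46 in B16-RII and 5.73 in B16-RIIL, detected in each. It was 3.74-fold below B16 in B16-RII, the line with the highest H2-D1 signal, and 3.92-fold lower in B16-RII than in B16-RIIL. H2-Eb1, a class II beta chain, had signals of 1.14, 0.58, 0.25 and 0.56 and was detected in B16 alone. Its signal in B16-RII was at least 3.08-fold and in B16-RIIL at least 2.04-fold below that in B16. Both calls rest on the B16 signal, with an S/N of 3.45, and were lost with an S/N limit of 5. Ciita, which activates both, was likewise detected in B16 alone, while Cd74 was detected in all 4 lines.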
